A study of Mus musculus with 4 samples.

Results

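The 6 genes described here are Alx1, Alx4, Prrx1, Prrx2, Twist1 and Twist2, transcription factors of the mesenchyme that builds the mammalian face. They were taken by symbol from the 32285 features of single-cell libraries of the embryonic mouse nose, and each symbol matched 1 feature. Their levels were read in 13739 of 15863 cell barcodes, those with 500 or more genes detected and no more than 10% of UMIs from mitochondrial genes. Each RNA molecule captured in a cell carries its own random sequence, the UMI, so that copies made by PCR are counted once.

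Most of the facial mesenchyme descends from the cranial neural crest, which leaves the neural tube, fills the facial prominences and later forms cartilage, bone and connective tissue. Alx and Prrx proteins are paired-type homeodomain factors: the Alx genes are needed for the midface and nose, and the Prrx genes for the skull, the jaw and the limbs. Twist1 and Twist2 are basic helix-loop-helix factors that bind E-box sequences with partner proteins. Both are known to hold back osteoblast maturation, and Twist1 is also needed for cranial neural crest and skull sutures, whereas Twist2 is also known as Dermo1 for its place in the dermis.

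In GRCm38 (GENCODE M21), Alx1 (ENSMUSG00000036602) lies at chr10:102998707-103030215 on the minus strand, and Alx4 (ENSMUSG00000040310) at chr2:93642384-93681339 on the plus strand, where it overlaps Ext2 of the opposite strand. Prrx1 (ENSMUSG00000026586) lies at chr1:163245119-163313710 on the minus strand with the antisense transcript Gm20471, and Prrx2 (ENSMUSG00000039476) at chr2:30834972-30881251 on the plus strand. Twist1 (ENSMUSG00000035799) is the most compact of the 6, at chr12:33957671-33959829, and Twist2 (ENSMUSG00000007805) spans chr1:91801461-91848028, both on the plus strand, the latter with the antisense transcript Gm29100. The paralogues can be told apart by sequence: the longest identical stretch between annotated transcripts was 19 bases for Alx1 and Alx4, 19 for Prrx1 and Prrx2 and 23 for Twist1 and Twist2.

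RefSeq promoter windows (GRCm38.p6, from 250 bases before to 50 after the start site) matched 4 of the 6 members, Prrx1, Prrx2, Twist1 and Twist2. Promoters of Prrx1, Twist1 and Twist2 are shown because Twist2 was higher and Prrx1 lower in 1 mesenchyme subtype, marked by Pou3f4, and Twist1 is the closest relative of Twist2. The part before the annotated starts is given 5′ to 3′ on the gene's strand, Prrx1 at chr1:163313711-163313900 (minus), Twist1 at chr12:33957421-33957670 (plus) and Twist2 at chr1:91801211-91801460 (plus). Capitals mark matches to GGAATG, the core to which TEAD proteins, the DNA-binding partners of YAP and TAZ, bind, and to the homeodomain core TAATTA.
Prrx1: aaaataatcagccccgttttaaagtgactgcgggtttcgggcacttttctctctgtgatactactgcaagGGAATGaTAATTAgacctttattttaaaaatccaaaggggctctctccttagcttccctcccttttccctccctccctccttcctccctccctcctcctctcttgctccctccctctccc
Twist1: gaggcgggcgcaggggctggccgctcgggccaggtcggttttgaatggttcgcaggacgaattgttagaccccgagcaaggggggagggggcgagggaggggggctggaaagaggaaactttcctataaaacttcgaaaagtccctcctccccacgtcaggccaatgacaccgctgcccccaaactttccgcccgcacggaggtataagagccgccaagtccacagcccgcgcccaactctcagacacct
Twist2: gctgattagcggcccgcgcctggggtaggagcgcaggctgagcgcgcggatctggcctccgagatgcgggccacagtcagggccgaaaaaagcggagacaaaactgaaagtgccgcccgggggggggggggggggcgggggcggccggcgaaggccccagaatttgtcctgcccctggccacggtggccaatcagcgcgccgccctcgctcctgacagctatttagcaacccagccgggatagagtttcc
Prrx1 held 1 match to GGAATG, starting 180 bases before the RefSeq start site, and 1 to TAATTA, starting 173 bases before it, with 1 base between them. Neither was found in the windows of Prrx2, Twist1 or Twist2. On both strands of all 32851 promoter windows, GGAATG was present in 14.7%, TAATTA in 5.29%, the E-box CANNTG in 72.3% and the paired-type site (TAAT and ATTA, 3 bases apart) in 0.487%. No E-box and no paired-type site was found in any of the 4 windows. The Prrx1 window was 47.7% G and C with 6 CpG, below the median of 52.7% and near the median of 7 CpG over all windows, whereas Prrx2 had 70.3% and 28, Twist1 66.0% and 27, and Twist2 64.7% and 25. A match of letters is a description and not a binding site.

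Whole noses were taken at embryonic day 14.5, and cells were dissociated with papain and collagenase, frozen and run on the 10x Genomics 3-prime assay, per the labels. The 2 control libraries are titled WT; their genotype label is C57Bl/6J, whereas the series design describes yap flox/flox;taz flox/flox embryos without Cre, and the disagreement was not settled. The 2 mutant libraries, titled Sox10Cre/Yap/Taz cKO, carry Tg(Sox10-cre)1Wdr with floxed Yap and Taz in C57Bl/6J, while in the design they are heterozygous for floxed Yap (yap flox/WT) and homozygous for floxed Taz. Sox10 is active in migrating neural crest and later in glia, and a Cre driven by it leaves cells without that history unrecombined. The labels name 2 noses per group, read here as 1 nose per library. P-values between genotypes therefore measure the spread between libraries. Those between gates set each library against itself, with controls and mutants pooled, so differences common to a library are taken out. In both, the spread was estimated with information shared over genes. The labels also name 2 sequencing providers without saying which library went where.

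Control 1, control 2, mutant 1 and mutant 2 kept 4075, 2474, 2995 and 4195 cells with medians of 7033, 6878.5, 8549 and 5282 UMIs, and pairs of libraries shared between 4 and 8 barcodes. Over all retained cells Yap1 stood at 65.0, 65.2, 56.4 and 56.0 CPM (a gene's UMIs scaled to a total of 1000000 UMIs) in that order, Wwtr1 (the Taz gene) at 118, 145, 123 and 132 CPM, and Sox10 at 5.24, 7.28, 4.57 and 3.94 CPM. The mutant libraries were the lower for Yap1 and Sox10 and overlapped the controls for Wwtr1, and a 3-prime tag can count a transcript that lacks floxed exons, so these levels do not measure recombination.

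Cells were assigned to classes by marker genes, none of which is a member. A cell with at least 3 of 10 mesenchyme markers, such as Pdgfra and Lum, and no other class was called gated mesenchyme, which took in 8345 cells (60.7%). Runx2 and Alpl without Sp7 marked preosteoblasts, Sp7 with other bone genes committed osteoblasts, and cartilage matrix genes chondrocytes, 1710 cells together (12.4%). The glial gate asked for at least 3 of 7 glial markers, Sox10 among them, and held 38, 24, 30 and 20 cells. Its leading genes included Fabp7, itself a marker of the gate, and Ednrb and Npy, which are not. Within mesenchyme, 6 subtypes were named only by the genes that gate them. Most mesenchymal cells passed none of these gates or several of them, and 1465 cells (10.7%) passed no gate at all. Cells that passed a meningeal gate were 21, 29, 2 and 5, were led by Ttr and Htr2c and were too few to be tested, and statements on gates cover the 16 with at least 20 cells in every library.

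For each of the 6 members, gated mesenchyme held a larger share of the UMIs than it held of all UMIs. The skeletal gates did so for the Alx and Prrx genes only. Gated mesenchyme held 53.3% of all retained UMIs but 67.2% of the UMIs of Alx1, 62.7% of Alx4, 72.4% of Prrx1, 68.1% of Prrx2, 79.1% of Twist1 and 85.9% of Twist2. The skeletal gates, with 14.1% of all UMIs, held 24.8% of Alx1 and 24.4% of Alx4 but 11.8% of Twist1 and 3.90% of Twist2. Twist2 was thus the member least shared with the skeleton by this count. The members' UMIs over all retained cells numbered 19831 for Alx1, 2865 for Alx4, 39796 for Prrx1, 15282 for Prrx2, 40037 for Twist1 and 17804 for Twist2, so Alx4 values carry the most counting error. Outside mesenchyme, skeleton and the vessel wall the 4-library means in tested gates were at most 30.4 CPM, apart from Alx4 in glia. Gates too small to be tested were not all low: Twist1 averaged 70.4 and Twist2 59.8 CPM in neuronal cells, and Prrx1 51.9 CPM in skeletal muscle. In macrophages, which should lack these genes, the 4-library means lay between 0.306 CPM for Alx4 and 24.3 CPM for Prrx1.

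**Figure D1:**
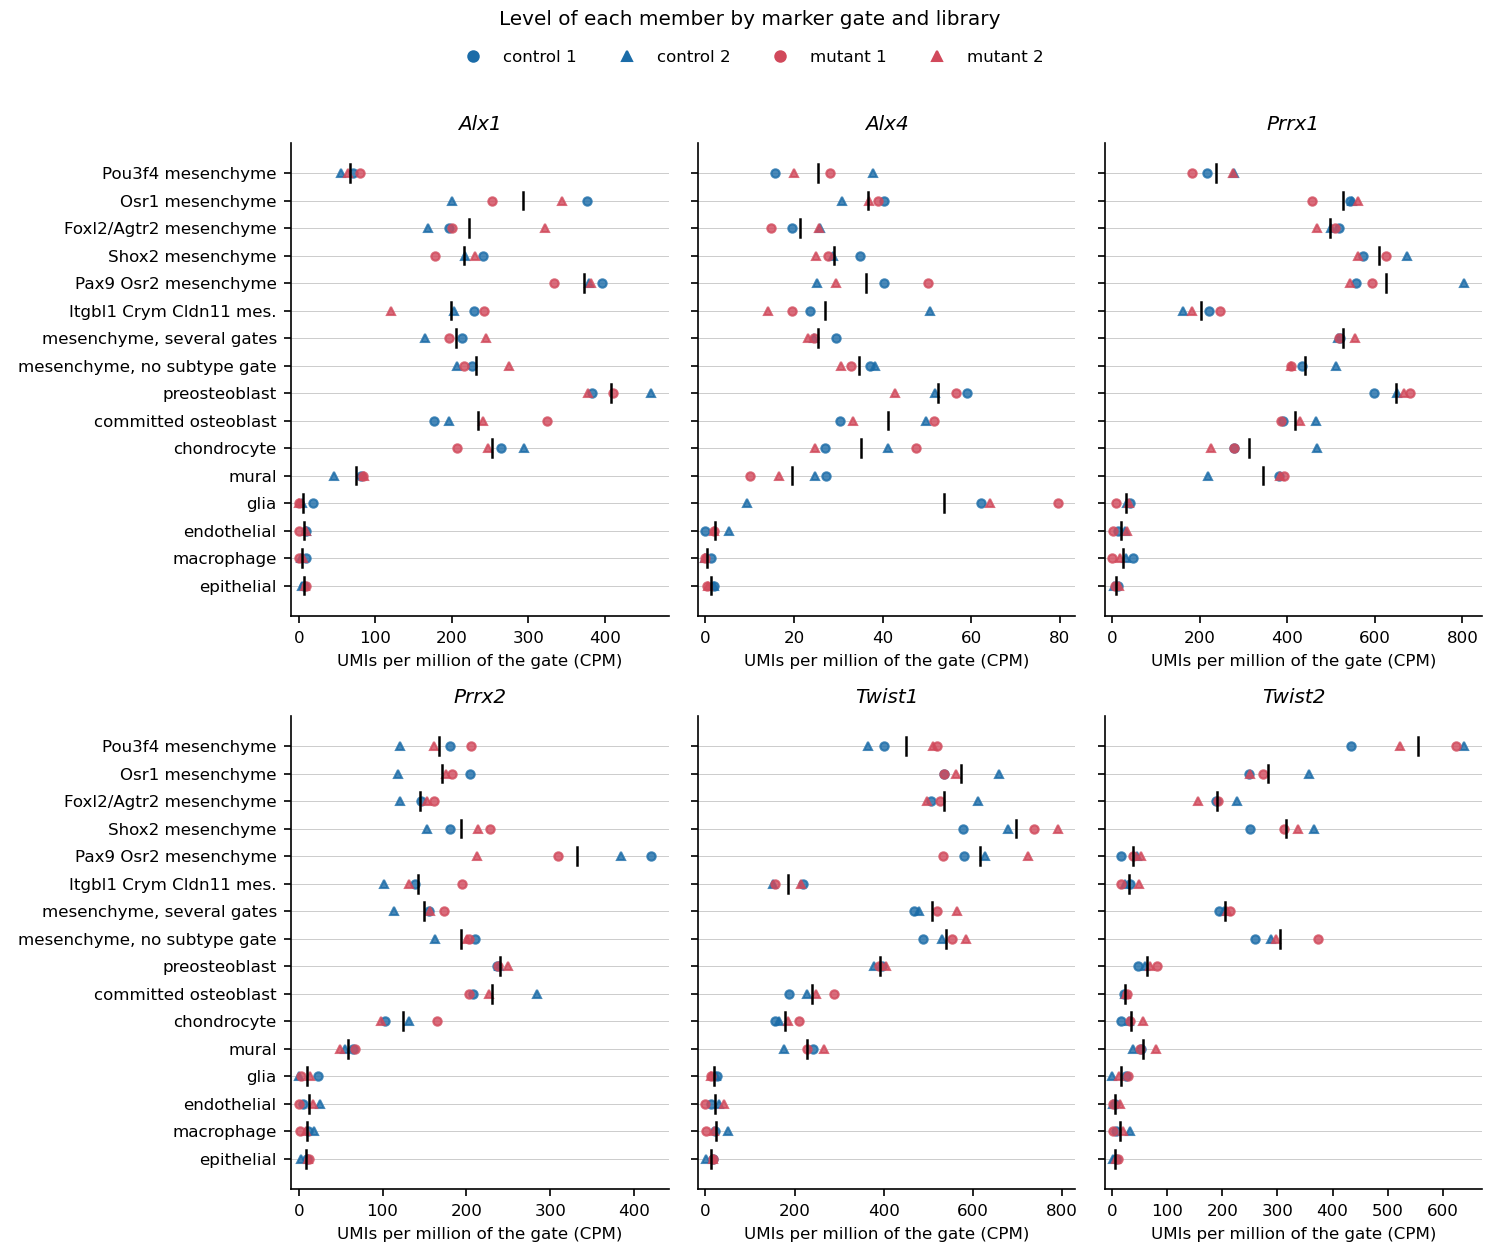
Level of each member (horizontal axis, CPM of the gate's UMIs, linear from 0 and scaled for each gene) in 16 gates with at least 20 cells in every library. Points are libraries (blue control, red mutant; circle replicate 1, triangle replicate 2) and bars the mean of 4. Alx1 was lowest among the mesenchyme gates in the Pou3f4 gate, at 55.0 to 79.9 CPM, where Twist2 was highest, at 433 to 639 CPM.

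Alx1, needed for growth of the midface, had a wide range within the mesenchyme. In the order of control 1, control 2, mutant 1 and mutant 2 it was at 384, 460.2, 411 and 377 CPM in preosteoblasts and at 396, 379.5, 333 and 382 CPM in Pax9 Osr2 mesenchyme. These neighbours at the top of the order overlapped. Pou3f4-positive mesenchyme lay at the other end of the mesenchyme gates with 70.6, 55.0, 79.9 and 64.8 CPM, below every library of each other tested mesenchyme and skeletal gate. Between them stood the Osr1-positive gate at 293 ± 80.9 CPM (SD, n = 4 libraries), chondrocytes at 253 ± 36.7, committed osteoblasts at 235 ± 65.3, Foxl2 or Agtr2 mesenchyme at 222 ± 68.2, Shox2-positive mesenchyme at 216 ± 27.7 and Itgbl1 Crym Cldn11 mesenchyme at 198 ± 54.3. Each of these neighbours overlapped the next. Mural cells, the pericytes and smooth muscle around vessels, followed at 74.5 ± 18.9 CPM.

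The difference between a subtype and the other gated mesenchyme was tested over all genes with edgeR's quasi-likelihood test, with the library as a block and Benjamini-Hochberg adjustment. That other mesenchyme included cells that passed several gates, which can carry the subtype's own marker. Of 36 tests of members, 16 passed an adjusted p of 0.05. The share of all genes that passed depended on the subtype: 19.2% for Pou3f4, 7.15% for Osr1, 4.2% for Foxl2 or Agtr2, 2.98% for Shox2, 5.89% for Pax9 Osr2 and 9.99% for Itgbl1 Crym Cldn11. Alx1 was lower in the Pou3f4 subtype, with a log2 change of -1.69 ± 0.12 (SE; edgeR adjusted p = 3.2e-43). It was higher in the Pax9 Osr2 subtype by 0.66 ± 0.12 (adjusted p = 4.0e-06) and in the Osr1 subtype by 0.46 ± 0.08 (adjusted p = 0.0021), and did not pass in the remaining 3.

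Alx4, which acts beside Alx1 in the midface and is known for defects of the parietal bones and digits, had the narrowest range of subtype changes among the 6 members, from -0.50 to 0.38 on the log2 scale. Its means in the 6 subtype gates lay between 21.4 ± 5.34 CPM in Foxl2 or Agtr2 mesenchyme and 36.8 ± 4.16 CPM in Osr1 mesenchyme, and neighbours in the order overlapped throughout. In the Osr1 gate Alx4 stood at 40.3, 30.9, 39.1 and 37.0 CPM and was higher than in the other mesenchyme, with a log2 change of 0.38 ± 0.10 (edgeR adjusted p = 0.040). That call did not hold everywhere: counting cells of several gates in each gate gave -0.094, and without control 1, mutant 1 or mutant 2 the adjusted p was between 0.11 and 0.21. No other subtype passed for Alx4.

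Prrx1 was low in the same subtype as Alx1 and in a further one. Levels were highest in preosteoblasts, at 599, 649.7, 680.0 and 667 CPM, and next in Pax9 Osr2 mesenchyme, at 558, 805, 592 and 544 CPM. Shox2 mesenchyme at 609 ± 51.2 CPM completed the upper group, and every one of its libraries exceeded every library of the mesenchyme gates ranked after it. At the low end stood Pou3f4 mesenchyme, at 216, 278, 182 and 276 CPM, and Itgbl1 Crym Cldn11 mesenchyme, at 222, 161, 246 and 183 CPM. Those 2 overlapped each other and lay below every library of each other tested mesenchyme gate. The log2 change against the other mesenchyme was -1.11 ± 0.09 in the Pou3f4 subtype (edgeR adjusted p = 4.2e-36), -1.32 ± 0.11 in the Itgbl1 Crym Cldn11 subtype (adjusted p = 2.8e-30) and 0.34 ± 0.05 in the Shox2 subtype (adjusted p = 5.8e-04).

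Prrx2, which shares much of its function with Prrx1, did not follow it in the Pou3f4 subtype, where its log2 change was -0.029 ± 0.10 (edgeR adjusted p = 0.90). It was highest in Pax9 Osr2 mesenchyme, at 420.1, 385, 309 and 213 CPM, a gate of 30 to 55 cells per library. Both controls were above both mutants there, and mutant 2 lay within the range of committed osteoblasts. The subtype change of Prrx2 was 0.85 ± 0.13 (edgeR adjusted p = 2.3e-08), and no other subtype passed.

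Twist1 kept a high level in most of the mesenchyme and was low in 1 subtype. Shox2 mesenchyme, whose marker is known from the palate, had the highest levels at 577, 679, 738 and 789.7 CPM. The Itgbl1 Crym Cldn11 subtype had 219, 152, 156 and 214 CPM, below every library of each other tested mesenchyme gate. The log2 change was 0.40 ± 0.05 in the first (edgeR adjusted p = 1.0e-04) and -1.57 ± 0.11 in the second (adjusted p = 1.7e-42). A smaller change of -0.25 ± 0.08 in the Pou3f4 subtype (adjusted p = 0.0066) was not called without control 2 (adjusted p = 0.16).

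Twist2 had the widest range of subtype changes among the 6 members, from 1.15 to -3.08 on the log2 scale. It was highest in Pou3f4 mesenchyme, at 433, 639, 624 and 523 CPM, and every library there exceeded every library of the gate that follows, Shox2 mesenchyme at 316 ± 49.0 CPM. Levels were low in Pax9 Osr2 mesenchyme, at 16.6, 45.5, 37.0 and 51.5 CPM, and in Itgbl1 Crym Cldn11 mesenchyme, at 33.0, 23.0, 15.6 and 47.8 CPM. The libraries of these 2 subtypes overlapped and lay far below those of the remaining tested mesenchyme gates, which began at 155 CPM. Against the other mesenchyme Twist2 changed by 1.15 ± 0.08 in the Pou3f4 subtype (edgeR adjusted p = 4.4e-46), -3.00 ± 0.18 in the Pax9 Osr2 subtype (adjusted p = 3.0e-33) and -3.08 ± 0.18 in the Itgbl1 Crym Cldn11 subtype (adjusted p = 4.3e-62). Changes of -0.42 ± 0.09 in Foxl2 or Agtr2 mesenchyme and 0.30 ± 0.06 in Shox2 mesenchyme also passed (adjusted p = 0.010 and 0.012), and both were lost without mutant 2 (adjusted p = 0.071 and 0.10), the second also without control 2 (0.098) and with cells of several gates counted in each (0.46).

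**Figure D2:**
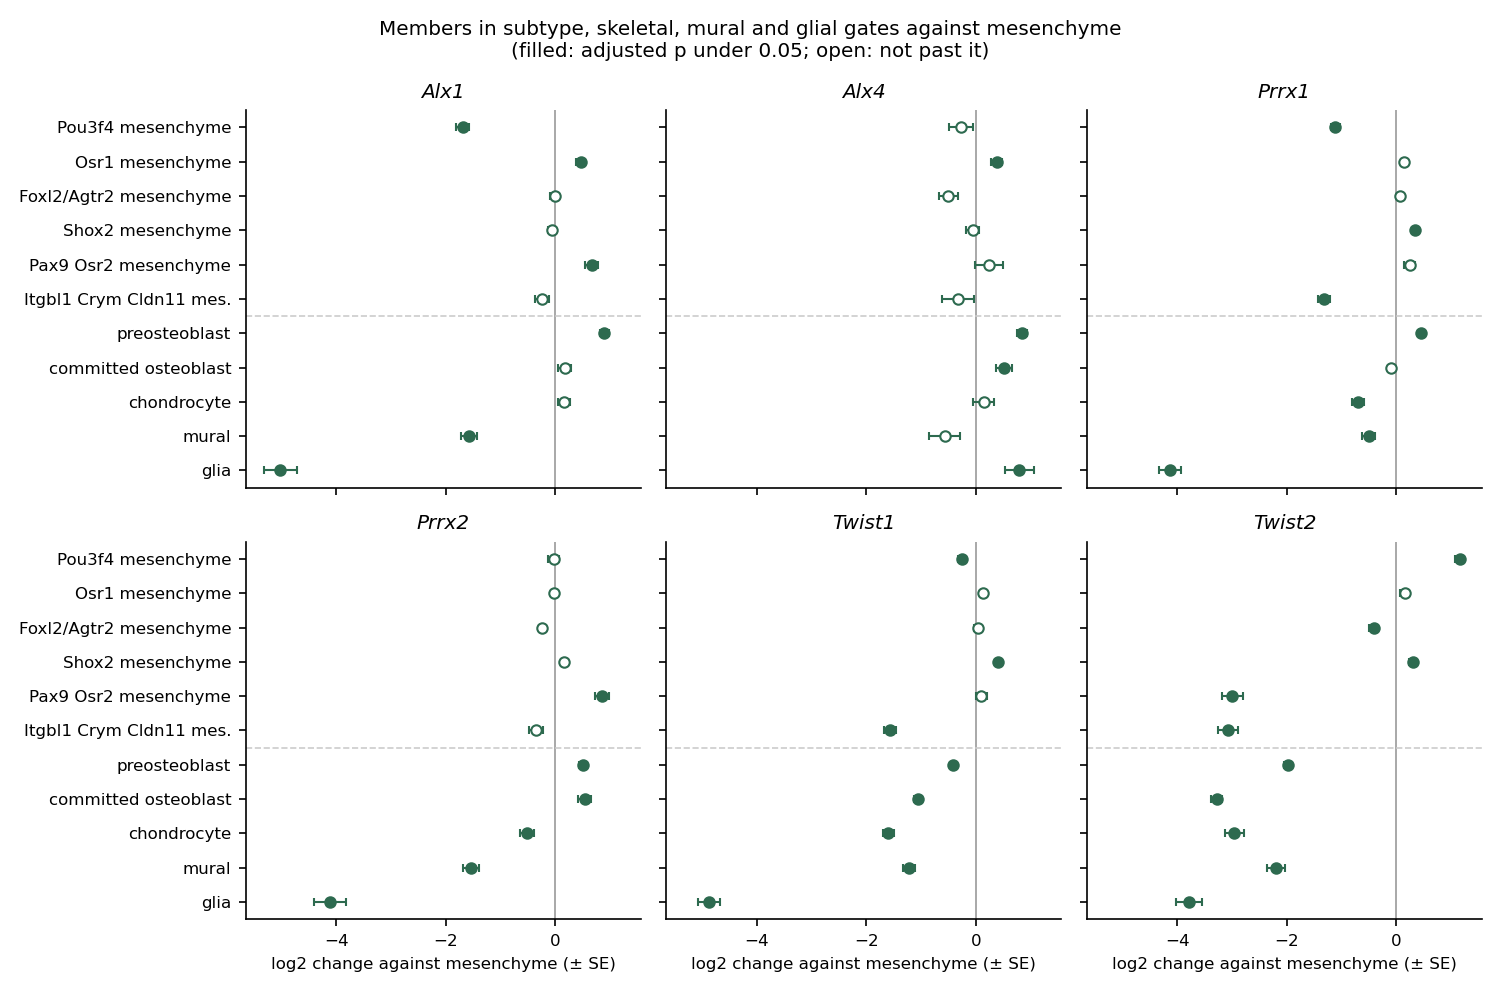
Log2 change (horizontal axis, ± SE) of each member in 6 mesenchyme subtypes against the other gated mesenchyme (above the dashed line) and in preosteoblast, committed osteoblast, chondrocyte, mural and glial gates against all gated mesenchyme (below it). Filled points passed an edgeR adjusted p of 0.05. Twist2 reached -3.28 in committed osteoblasts, where Prrx2 was at 0.53, and Alx4 was the only member above 0 in glia.

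In preosteoblasts Alx1, Alx4, Prrx1 and Prrx2 were higher than in gated mesenchyme and Twist1 and Twist2 lower, so that 6 of 6 members passed where 12.7% of all genes did. Of 24 tests over the preosteoblast, committed osteoblast, chondrocyte and glial gates, 20 passed. Against mesenchyme, preosteoblasts had log2 changes of 0.89 ± 0.08 for Alx1, 0.84 ± 0.09 for Alx4, 0.44 ± 0.05 for Prrx1 and 0.50 ± 0.07 for Prrx2 (edgeR adjusted p between 7.1e-07 and 7.1e-05). Twist1 changed by -0.42 ± 0.05 and Twist2 by -1.99 ± 0.08 (adjusted p = 2.5e-05 and 1.3e-11).

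Twist1 in preosteoblasts was at 396, 377, 388 and 406 CPM, against 487, 540.3, 544 and 579.9 CPM in gated mesenchyme. In committed osteoblasts it was at 188, 227, 288 and 248 CPM. The 3 sets of libraries did not overlap, so Twist1 stepped down from mesenchyme through preosteoblasts to committed osteoblasts. Twist2 went from 219.8, 273, 292 and 254 CPM in mesenchyme to 47.2, 59.1, 82.1 and 67.7 CPM in preosteoblasts and 20.8, 23.0, 26.2 and 25.8 CPM in committed osteoblasts, again without overlap. Against mesenchyme, committed osteoblasts, where 31.9% of all genes passed, had log2 changes of -1.05 ± 0.08 for Twist1 (edgeR adjusted p = 6.5e-08) and -3.28 ± 0.10 for Twist2 (adjusted p = 5.9e-12).

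Alx4 and Prrx2 remained above mesenchyme in committed osteoblasts. Alx4 stood at 30.3, 49.7, 51.5 and 33.3 CPM there against 27.9 to 32 CPM in mesenchyme, so 1 of the 4 osteoblast libraries lay within the mesenchyme range. Its log2 change of 0.51 ± 0.15 (edgeR adjusted p = 0.014) was not called without control 2 or mutant 1 (adjusted p = 0.052 and 0.098). Prrx2 was at 207, 284, 204 and 227 CPM against 184, 136, 192 and 179 CPM, with no overlap and a change of 0.53 ± 0.12 (adjusted p = 0.0029). Alx1 and Prrx1 did not pass in committed osteoblasts, at 0.17 ± 0.12 and -0.094 ± 0.062. Set directly against preosteoblasts, a comparison added after seeing the data in which 24.5% of genes passed, committed osteoblasts were lower in 4 of 6 members. Alx1 changed by -0.71 ± 0.12, Prrx1 by -0.53 ± 0.07, Twist1 by -0.63 ± 0.09 and Twist2 by -1.28 ± 0.14 (adjusted p between 1.0e-05 and 3.5e-04), whereas Alx4 and Prrx2 were at -0.32 ± 0.16 and 0.020 ± 0.087.

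Chondrocytes of the nasal cartilage had Alx1 near its mesenchymal level and were low in the Twist genes. Alx1 was at 264, 294, 206 and 247 CPM against 234, 187, 208 and 267 CPM in mesenchyme, overlapping, with a log2 change of 0.16 ± 0.11 (edgeR adjusted p = 0.35). Twist1 was at 155, 165, 211 and 185 CPM and Twist2 at 15.4, 31.0, 31.7 and 55.5 CPM, each below all mesenchyme libraries. The changes were -1.60 ± 0.10 and -2.97 ± 0.17 (adjusted p = 5.2e-14 and 8.2e-15), where 17.6% of all genes passed. Prrx1 changed by -0.70 ± 0.11 (adjusted p = 6.6e-06) and Prrx2 by -0.52 ± 0.13 (adjusted p = 0.0026), the latter not called without control 1 (0.056) or mutant 2 (0.065). Chondrocytes and osteoblasts were thus alike in low Twist2 and differed in Prrx2, which was above mesenchyme in one and below it in the other.

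Mural cells, compared after seeing the data, were lower than mesenchyme in 5 of 6 members, where 20.8% of all genes passed. Prrx1 was the best kept of the 5, at 381, 219, 393 and 384 CPM with a log2 change of -0.51 ± 0.12 (edgeR adjusted p = 0.0010). Without control 2, the lowest library, that change was -0.28 with an adjusted p of 0.051. Alx1 changed by -1.58 ± 0.14, Prrx2 by -1.54 ± 0.15, Twist1 by -1.23 ± 0.11 and Twist2 by -2.20 ± 0.16.

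Among the tested gates outside mesenchyme, skeleton and the vessel wall, glia stood apart for 1 member. Alx1, Prrx1, Prrx2, Twist1 and Twist2 were near the level of other non-mesenchymal cells in glia, while Alx4 was at 62.2, 9.47, 79.6 and 64.3 CPM, its highest 4-library mean among the 16 gates (53.9 ± 30.6), though its libraries overlapped those of preosteoblasts. Control 1 and both mutants were above every mesenchyme library, and control 2 was below all of them, resting on 2 UMIs against 24, 28 and 10 in the others. Against gated mesenchyme, where 22.6% of all genes passed, Alx4 had a log2 change of 0.79 ± 0.27 (edgeR adjusted p = 0.020). The call was lost without control 1, mutant 1 or mutant 2 (adjusted p = 0.11, 0.33 and 0.11), while the change stayed between 0.51 and 1.13 with each library left out in turn.

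Alx1, by contrast, had 7, 1, 0 and 0 UMIs in glia and a log2 change of -5.02 ± 0.30 (edgeR adjusted p = 1.6e-25), and Prrx1 16, 7, 3 and 6 UMIs and a change of -4.14 ± 0.19. Twist1, Prrx2 and Twist2 changed by -4.87 ± 0.20, -4.11 ± 0.29 and -3.79 ± 0.24. The values of these 5 in glia overlapped those in macrophages and endothelial cells.

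Alx4 UMIs were found in 12 of 38, 2 of 24, 15 of 30 and 5 of 20 glial cells. Prrx1 was found in 1, 1, 1 and 0 of these Alx4-positive cells. Cells with fewer than 3000 UMIs were left out of all thinned shares. After thinning to 3000 UMIs per cell, 7.89%, 0%, 23.3% and 15.8% of glia had an Alx4 UMI, against 0% in every library of macrophages. The exact 95% binomial intervals in glia were 1.66% to 21.4%, 0% to 14.8%, 9.93% to 42.3% and 3.38% to 39.6%, and the upper bounds in macrophages 4.15% to 8.22%, covering counting error only. Without thinning the glial shares were 31.6%, 8.33%, 50% and 25.0%, and median depths were 6730.5 to 10701 UMIs in glia and 7467 to 10396 in macrophages. For Prrx1 the same shares were 5.26%, 8.70%, 3.33% and 5.26% in glia and 8%, 7.84%, 0% and 2.30% in macrophages, which overlap. The 10 mesenchyme markers summed to 767 to 1107 CPM in glia, 2938 to 3514 CPM in mesenchyme and 14.0 to 261 CPM in macrophages, and 6 of the 10 were detected in every glial library; their part in the Alx4 level was not tested. Removing cells with the highest doublet scores, an alternative added after seeing the data, gave Alx4 a change of 0.91 (edgeR adjusted p = 0.0080) and took Alx1 to -5.84. Ext2, which overlaps Alx4 on the other strand, was at 36.3, 47.3, 56.8 and 70.7 CPM in glia and 60.5 to 68.4 CPM in mesenchyme, and reads of the pair could be told apart only if strand was used in counting, which is not given in the sources used here.

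**Figure D3:**
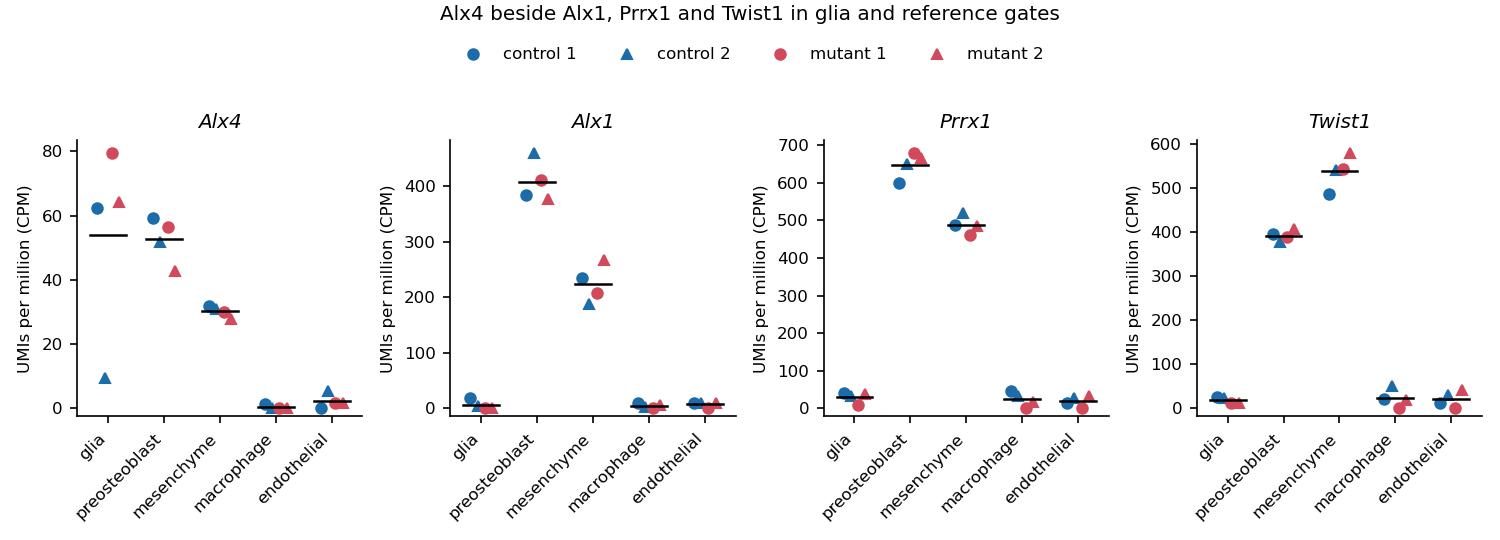
Level (vertical axis, CPM, linear, scaled for each gene) of Alx4, Alx1, Prrx1 and Twist1 in glia, preosteoblasts, all gated mesenchyme, macrophages and endothelial cells. Points are libraries (blue control, red mutant; circle replicate 1, triangle replicate 2) and bars the mean of 4. In glia, Alx4 was above all mesenchyme libraries in 3 of 4 libraries, control 2 lay at 9.47 CPM, and the other 3 genes were far below mesenchyme.

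Within single mesenchymal cells some pairs of members were found together more often, and others less often, than the product of their single shares. Thinning to 3000 UMIs left out cells with fewer, which were 112 of 2424, 54 of 1636, 78 of 1857 and 224 of 2428 mesenchymal cells. Among the cells kept, 36.5%, 30.7%, 31.9% and 37.4% of gated mesenchyme had an Alx1 UMI, and 33.5%, 37.9%, 40.4% and 37.7% a Twist2 UMI. The share with both was between 0.548 and 0.681 times the product of the shares. Alx4 and Twist2 also fell below 1 in every library, from 0.439 to 0.856 times. Alx1 and Alx4 were found together 1.30 to 1.58 times as often as the product, Alx4 and Prrx2 1.17 to 1.31 times, Alx1 and Prrx2 1.10 to 1.24 times, and Twist1 and Twist2 1.15 to 1.19 times. For Prrx1 and Twist1 the ratio was 0.979 to 1.03. Between 47.5% and 51.5% of thinned mesenchymal cells had UMIs of at least 3 members and 3.26% to 5.18% had none. These ratios mix subtypes and sampling of few UMIs, and no test was made.

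**Figure D4:**
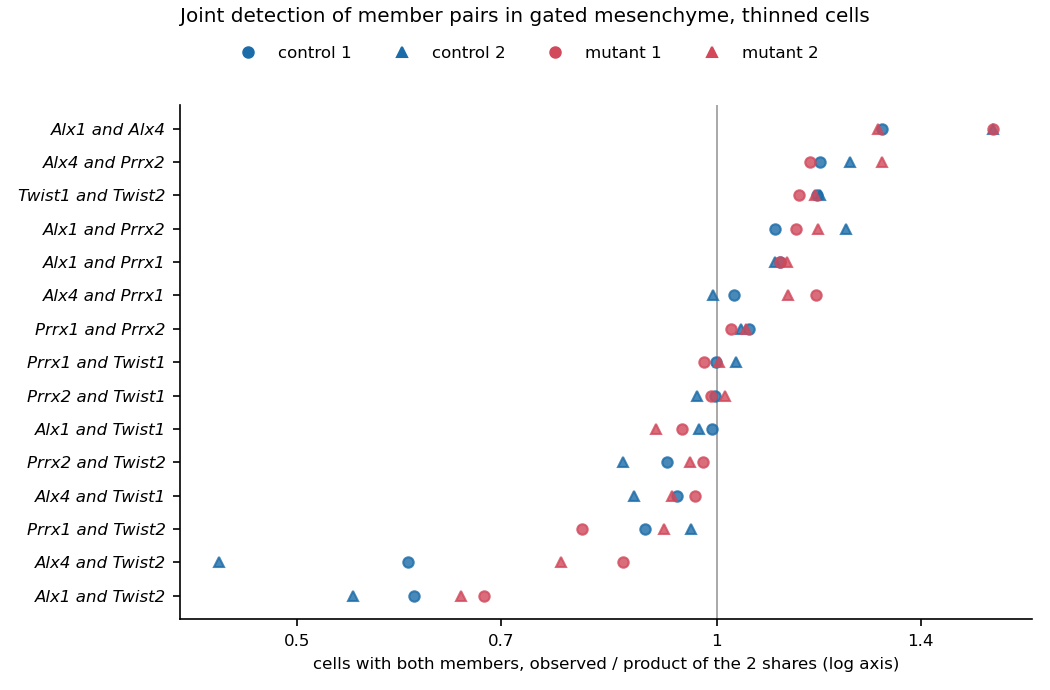
Share of gated mesenchymal cells with UMIs of both members of a pair, divided by the product of the 2 single shares (horizontal axis, log scale; 1 marked by the grey line), after thinning each cell to 3000 UMIs. Cells with fewer than 3000 UMIs were left out. Points are libraries (blue control, red mutant; circle replicate 1, triangle replicate 2). Alx1 with Twist2 was at 0.548 to 0.681 in the 4 libraries and Alx1 with Alx4 at 1.30 to 1.58.

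Likeness of pattern was measured as Pearson's r of log2(CPM + 10) over the means of the 16 gates, which share libraries and depth. Prrx1 and Twist1 were alike at 0.97, Alx1 and Prrx2 at 0.96 and Alx1 and Prrx1 at 0.95, whereas Twist2 had 0.56 with Alx1 and 0.43 with Alx4. Among 6173 genes the most alike were Adamts2 (0.97), Eln (0.97) and Bet1l (0.97) for Alx1, Sgcd (0.94), Chsy3 (0.94) and Pdzrn3 (0.93) for Alx4, and Ddr2 (0.98), Col6a2 (0.97) and Twist1 for Prrx1. For Prrx2 they were Cdh11 (0.96), Alx1 and Cacna1g (0.96), for Twist1 Prr16 (0.97), Prrx1 and Tnfaip6 (0.97), and for Twist2 Tmem132c (0.97), Glis1 (0.95) and Egfl6 (0.95). Much of this likeness is the contrast of mesenchyme with other classes. Over the 11 tested mesenchyme and skeletal gates alone, a set chosen after seeing the data, Prrx1 and Twist1 had 0.68. Alx1 had 0.44 with Prrx2, 0.67 with Prrx1, 0.64 with Alx4 and -0.52 with Twist2. Twist2 had 0.71 with Twist1 and -0.44 with Alx4.

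Other factors of the same tissue were read from lists, and those named were chosen after their values were seen. Of 25 other facial mesenchyme factors, a list that holds Pax3, Msx1, Dlx5 and Six2 among others, 4 were higher and 14 lower in the Pou3f4 subtype, with a median log2 change of -1.38 against -0.063 over all genes. Those higher were Pax3, Meis1, Meis2 and Nr2f1, and Barx1 (-5.64 ± 0.39) and Lhx8 (-4.30 ± 0.44) were among the lower. In Pax9 Osr2 mesenchyme 11 were higher and none lower, with a median of 0.85 against -0.053, among them Dlx2 (2.57 ± 0.51) and Msx1 (1.13 ± 0.15). In glia, where 22.6% of all genes passed, 17 of 24 tested were lower and 5 higher, with a median of -3.44 against -0.15 over all genes. Among the 5 higher were Dlx1 (3.67 ± 0.53), Dlx2 (2.61 ± 0.52), Nr2f2 (1.91 ± 0.16) and Tfap2a (1.54 ± 0.41). Of 13 partners of Twist proteins and factors of epithelial to mesenchymal transition, 12 were tested in the Pou3f4 subtype, where 19.2% of all genes passed. There 2 were higher and 7 lower, with a median of -0.49 against -0.063 over all genes. The E protein gene Tcf4, whose product pairs with Twist proteins, was higher in the Pou3f4 subtype (0.98 ± 0.06). It was lower in Pax9 Osr2 mesenchyme (-0.84 ± 0.09), the same directions as Twist2.

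Between mutant and control libraries no member passed the test in any gate. Members were tested in 17 sums (the 16 gates and all gated mesenchyme), 89 of the 102 possible tests passed the filter on low counts, and 0 of 89 passed an edgeR adjusted p of 0.05. At an unadjusted p under 0.05 there were 8 (8.99%), against 3.42% to 10.1% of all genes over the same 17 sums. The smallest adjusted p was 0.72, and DESeq2 also called 0. The share of all genes called was 0.0% in all gated mesenchyme, in Foxl2 or Agtr2 mesenchyme, in mesenchyme of no subtype gate and in committed osteoblasts, chondrocytes, glia and epithelial cells. It was 0.0893% in Pou3f4, 0.0442% in Osr1, 0.0286% in Shox2, 0.0173% in Pax9 Osr2 and 0.0187% in Itgbl1 Crym Cldn11 mesenchyme, and 0.023% in mesenchyme of several subtype gates. Preosteoblasts had 0.0532%, endothelial cells 0.06%, macrophages 0.0412% and mural cells 0.682%, so few genes of any kind passed in these fits. That share depended on control 1: without it 591 genes (3.64%) were called in all gated mesenchyme and 410 (2.20%) over all retained cells, none of them a member. Over all retained cells 0 of 6 members passed, where 0.0% of genes did.

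Alx1 in all gated mesenchyme had levels of 234 and 187 CPM in control noses against 208 and 267 CPM in mutant noses, which overlap. The log2 change was 0.13 ± 0.15, and a range of 2 SE on either side reached from -0.18 to 0.43. Alx4 was at 32 and 31.0 against 30.1 and 27.9 CPM, both mutants below both controls, with a change of -0.16 ± 0.10 (range -0.36 to 0.045). Prrx1 was at 487 and 519 against 463 and 486 CPM, with both mutants again the lower by a narrow gap, and a change of -0.12 ± 0.10 (range -0.33 to 0.081). Prrx2 had 184 and 136 against 192 and 179 CPM and Twist2 219.8 and 273 against 292 and 254 CPM, both overlapping, with changes of 0.17 ± 0.15 (range -0.12 to 0.47) and 0.11 ± 0.14 (range -0.17 to 0.39). Twist1, at 487 and 540.3 against 544 and 579.9 CPM, was higher in both mutants and had a change of 0.089 ± 0.11 (range -0.13 to 0.30). These ranges describe the uncertainty of each estimate with 2 libraries a group. They are not limits of detection: 0 of 15676 genes passed in this fit, so larger changes could also go uncalled.

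**Figure D5:**
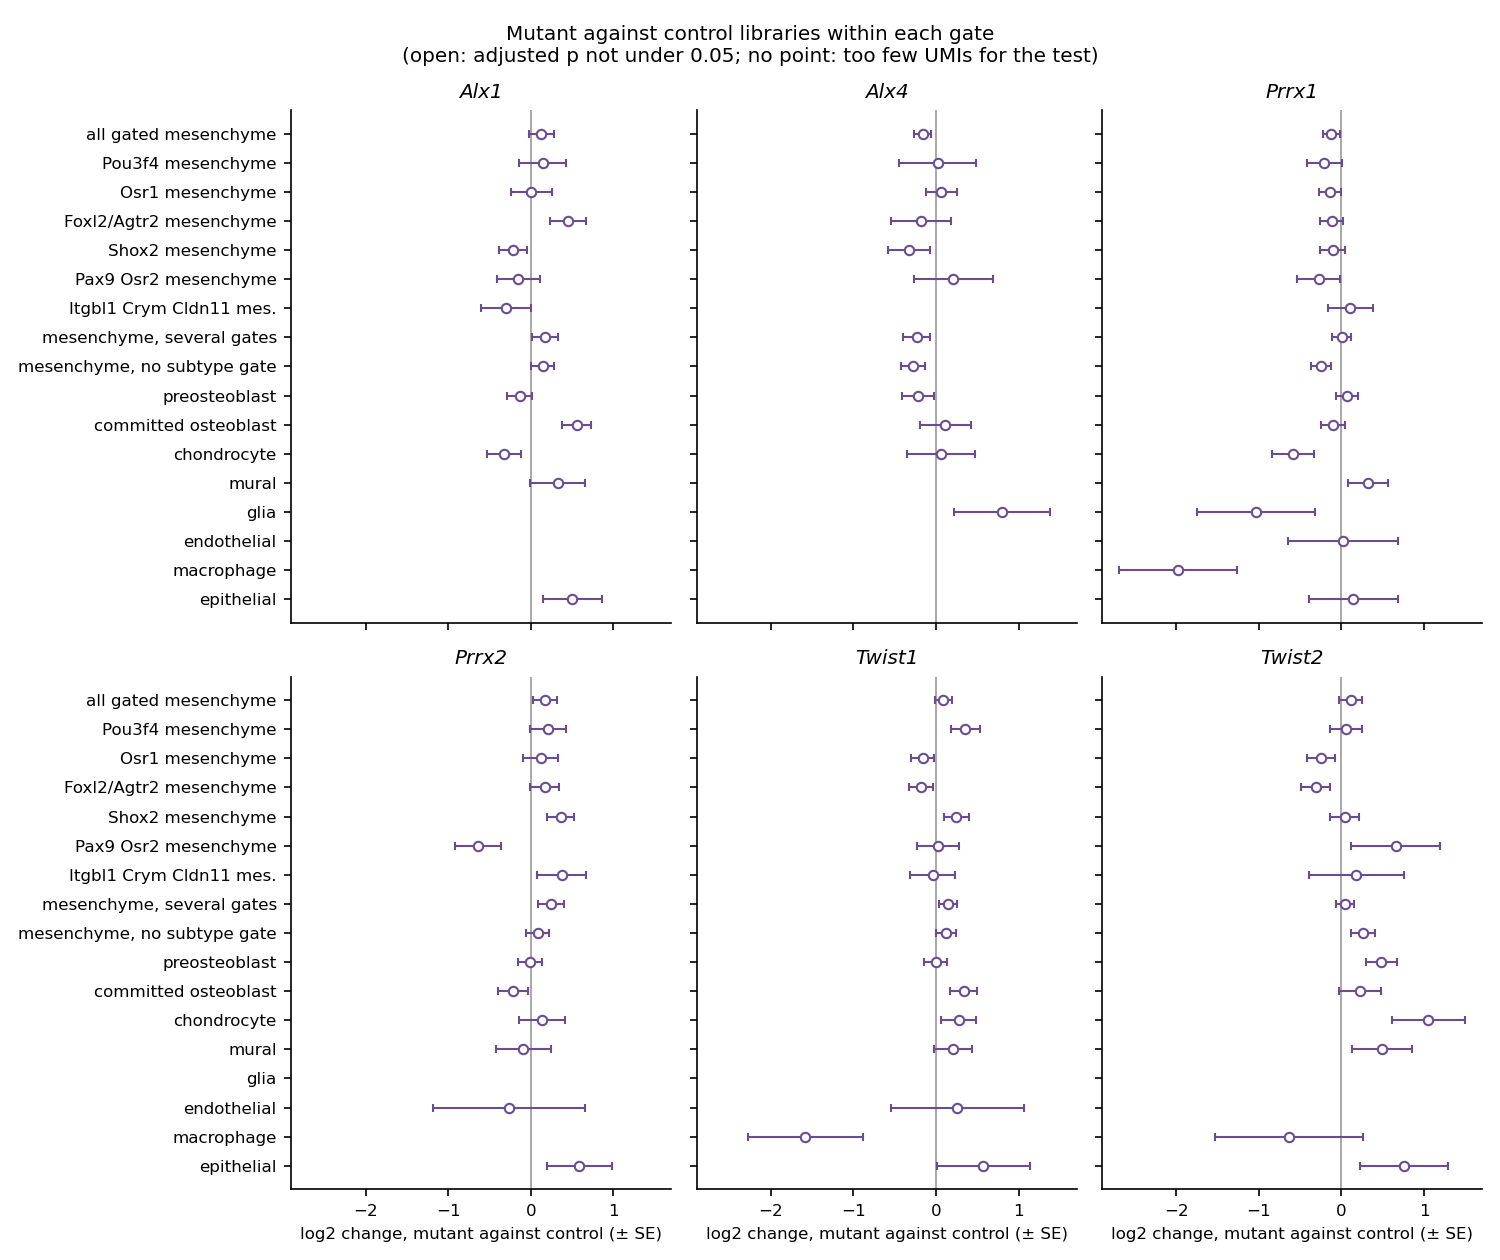
Log2 change of each member in mutant against control libraries (horizontal axis, ± SE) in all gated mesenchyme and in 16 gates. Open points did not pass an edgeR adjusted p of 0.05, and a gate without a point had too few UMIs for the test. All 89 points are open, and those of gated mesenchyme lie between -0.16 and 0.17.

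Several gates had groups that did not overlap without passing the adjustment. An exact two-sided permutation test of 2 against 2 libraries gives any such groups a p of 0.33. How many genes of any kind separate in a gate was not counted. Those given here were chosen for an unadjusted edgeR p under 0.05. In committed osteoblasts Alx1 had 177 and 197 CPM in control against 324 and 241 CPM in mutant libraries. The log2 change was 0.55 ± 0.18, with an edgeR adjusted p of 1.00. Twist2 in preosteoblasts was at 47.2 and 59.1 against 82.1 and 67.7 CPM, a change of 0.48 ± 0.19 (edgeR adjusted p = 0.88). In chondrocytes Twist2 was at 15.4 and 31.0 against 31.7 and 55.5 CPM (1.05 ± 0.44). All of these were higher in both mutant libraries than in both controls, Twist2 in chondrocytes by a margin under 1 CPM. Prrx1 in chondrocytes, at 279.2 and 467 against 278.8 and 225 CPM, was the reverse, also by a margin under 1 CPM, with a log2 change of -0.58 ± 0.25. Over the 4 fits that omit 1 library these changes ran from 0.34 to 0.74 for Alx1 in osteoblasts, from 0.30 to 0.61 for Twist2 in preosteoblasts, from 0.50 to 1.51 for Twist2 in chondrocytes and from -0.93 to -0.20 for Prrx1 in chondrocytes. Summed over the skeletal gates, Twist2 had 31.5 and 41.4 CPM in control libraries and 58.8 and 50.6 CPM in mutant ones. Its mutant change was larger in the skeleton than in mesenchyme by 0.43 ± 0.12 on the log2 scale. Yet the test of that difference had an edgeR adjusted p of 0.66 (0.0042 before adjustment), and 0.0% of 15099 genes passed it. Committed osteoblasts, low in Twist2, were 211 of 603 and 69 of 242 skeletal cells in controls 1 and 2. They were 88 of 351 and 148 of 514 in mutants 1 and 2. The part of this makeup in the Twist2 difference was not tested.

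Prrx2 had mutant changes of opposite sign in the Pax9 Osr2 and Shox2 subtypes. Neither was called, and the difference between the subtypes was not tested. Its levels in Pax9 Osr2 mesenchyme were 420.1 and 385 CPM without the Cre and 309 and 213 CPM with it (-0.64 ± 0.28), and in Shox2 mesenchyme at 179.9 and 153 against 228 and 214 CPM (0.36 ± 0.16). With each library left out the first ran from -0.99 to -0.37 and the second from 0.25 to 0.50. Neither pair of groups overlapped, with the same limit on what separation of 2 against 2 libraries means. Both were chosen for an unadjusted edgeR p under 0.05, and the edgeR adjusted p was 0.998 in Pax9 Osr2 and 0.952 in Shox2 mesenchyme. The remaining tests with an unadjusted p under 0.05 were of Prrx1 and Twist1 in macrophages, where mutant 1 had 0 and 1.75 CPM and the other libraries 18.2 to 46.6 and 19.6 to 50.3 CPM. In the same macrophages the mesenchyme markers summed to 14.0 CPM in mutant 1 and 94.4 to 261 CPM in the other libraries, and their part in these differences was not tested.

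In glia, the class in which Sox10 itself is expressed, Alx4 had 62.2 and 9.47 CPM in control libraries and 79.6 and 64.3 CPM in mutant ones. Both mutants were above both controls, mutant 2 only narrowly above control 1, with a log2 change of 0.79 ± 0.58 (edgeR adjusted p = 0.97). Without control 1 the change was 2.87 with an edgeR adjusted p of 0.030, which rested on the 2 UMIs of control 2 as the sole control and assumes that this library varies like the mutants. Prrx1 in glia changed by -1.04 ± 0.72 (adjusted p = 0.97), and the other 4 members had too few UMIs there to be tested.

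The share of mesenchymal cells with a UMI was compared after thinning. Mutants minus controls came to 1.06 percentage points for Alx1, -0.95 for Alx4, -3.05 for Prrx1, 5.80 for Prrx2, 2.99 for Twist1 and 3.36 for Twist2. The groups did not overlap for Prrx1 (lower in mutants) or for Prrx2 and Twist1 (higher), and overlapped for Alx1, Alx4 and Twist2. Without thinning the differences were -4.06 for Prrx1, 5.69 for Prrx2 and 1.19 for Twist1, and those groups overlapped too. The values without thinning include the cells of lower depth that thinning left out. No p is read here, since an exact two-sided permutation test of 2 against 2 libraries cannot go below 0.33. Groups that do not overlap have that value, and how many genes of any kind separate in this way was not counted. Among the related factors, 0 of 25 facial factors and 0 of 12 tested Twist partners were called in gated mesenchyme, with 7 and 2 at an unadjusted p under 0.05, where 8.07% of all genes were. Barx1 in mural cells was the one call among these lists over the gates, with 27.3 and 12.3 CPM in control against 202 and 88.3 CPM in mutant libraries (2.70 ± 0.47, edgeR adjusted p = 0.021). In the same mural sums the 9 epithelial markers together had 7.81, 9.24, 108 and 27.6 CPM, with Esrp1 and Krt15 at 0, and the 9 neuronal markers 13.7, 3.08, 50.4 and 58.0 CPM, with Dcx, Neurod1 and Insm1 at 0. Both sums were higher in the mutants, and their part in the Barx1 difference was not tested.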

How the data were processed

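The authors deposited raw UMI counts per gene and cell barcode (10x Genomics 3-prime v3.1, per the labels). Cell Ranger 8.0.1 made the matrices per the file headers, whereas the submitters' processing notes list Cell Ranger 4, Seurat 4.3.0 and mm10; counting options, strand included, are not given in the sources used here. The cells retained (500 or more genes, mitochondrial share up to 10%) held 19767873 to 35331450 UMIs per library. Marker gates assigned cells, with thresholds set after seeing the data. Counts were summed per library and gate, and gates that held 20 or more cells in each of the 4 libraries were tested in edgeR 4.0.16 (R 4.3.3; TMM, filterByExpr, quasi-likelihood F test, Benjamini-Hochberg over all genes tested), with a library block between gates and none between genotypes. The script was tested on simulated data. CPM values were computed as a gene's UMIs scaled to 1000000 UMIs of the gate. DESeq2 1.42.0, other scalings, filters and gates, doublet removal and each library left out were alternatives. Scrublet's automatic threshold marked 0 to 3 cells per library and was not used; the alternative removed the 56 to 163 highest scores per library. Members and lists were chosen with earlier results of these data known. The mural gate, the comparison of osteoblasts with preosteoblasts, doublet removal in the glial comparison and likeness over fewer gates were added after seeing the data. Named were the 6 members, for each member the 3 genes most alike, listed factors called between genotypes (at most 6), and Yap1, Wwtr1 and Sox10; a gene that the rule also names is not reported here. Other listed factors, Ext2 and Frzb fall outside that rule and were chosen after their values were seen. Likeness used genes of at least 50 CPM in a gate.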

Additional observations from a re-analysis of the deposited data

How the results depend on the processing

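Limits are the 2 noses a group, glial sums of 20 to 38 cells and, for Alx4, 2865 UMIs in all. Over all genes in gated mesenchyme, 0 were called between genotypes, but 591 without control 1, 26 without control 2, 4 without mutant 1, 98 without mutant 2, 575 with no filter on low counts, 56 with DESeq2, 33 with the replicate block and 2 with doublets removed. Between genotypes the count of member tests called was 0 of 89 and stayed 0 under DESeq2 (102 tests), DESeq2 size factors, doublet removal and stricter cells. It was 1 with 1 more marker per gate (mural Twist2, 2.16) and 2 with no filter on low counts (macrophage Prrx1, -1.97, and Twist1, -1.59), and 0 to 5 with each library left out. The 5 calls came without control 1 and were chondrocyte Prrx1 (-0.93), mural Prrx1 (0.81), glial Alx4 (2.87), epithelial Prrx2 (1.72) and epithelial Twist1 (3.59); without mutant 2 macrophage Prrx1 was called (-7.73). The mutant change in gated mesenchyme ran from -0.054 to 0.30 for Alx1, from -0.022 to 0.41 for Prrx2 and from -0.036 to 0.28 for Twist2 with each library left out, turning sign without control 2 (Alx1, -0.020, and Prrx2), mutant 2 (Alx1), control 1 (Twist2) or mutant 1 (Twist2, -0.0096). Alx4 in the Osr1 subtype was -0.094 with cells of several gates in each. The cause was not tested. Subtype calls numbered 13 to 18 with each library left out, 19 with no filter and 20 with cells of several gates in each, against 16, and skeletal and glial calls 18 to 19 against 20. Replicate numbers are only names: with the replicate block 0 of 89 tests were called, and same-numbered libraries' deviations correlated at -0.044 over all cells and 0.11 in glia. Of the alternative values for single members, 87 of 96 between subtypes, 114 of 122 between cell classes, 145 of 152 between genotypes and 4 of 4 for the interaction kept direction and side of the threshold. Between subtypes and cell classes only results called in the main fits were tallied, so a new call could not count as a change. Between genotypes 14 chosen results were tallied, none of them in mural cells, macrophages or epithelial cells.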

Other observations

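In neuronal cells, a gate of 14 to 33 cells per library that was too small to be tested, Twist1 was at 30.1, 130, 60.9 and 60.4 CPM in control 1, control 2, mutant 1 and mutant 2, and Twist2 at 3.77, 97.7, 77.4 and 60.4 CPM. Within glia, cells with a UMI of Frzb, a secreted Wnt antagonist picked after its values were seen, numbered 11, 2, 8 and 2, and 9, 0, 5 and 1 of the Alx4-positive cells were among them.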
